A study of Mus musculus with 18 samples.

Results

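The 10 imprinted growth genes described here are H19, Dlk1, Meg3, Peg3, Mest, Plagl1, Grb10, Ndn, Peg10 and Nnat, found by their symbols among the 27179 genes listed, of which the 14353 whose mean across libraries reached 10 normalized counts were tested. Of these 10 genes, 9 were among the tested genes and Peg3 was below the limit. RNA was sequenced from bone marrow-derived mesenchymal stem cells (MSCs), the adherent stromal cells grown from marrow, of C57BL6 mice. Young MSCs came from mice of 6 weeks and old MSCs from mice of 18 to 24 months, all males by the study's methods, and 6 libraries were made from each after 7 days of culture. A further 6 libraries came from rejuvenated old MSCs (co-cultured old MSCs), which were old MSCs that had spent the 7 days at 100000 cells per well in indirect co-culture with young MSCs across a membrane with 0.4 µm pores. The cells were expanded to passages 2 to 5, so that each library describes a cultured population and not fresh marrow. Old MSCs facing further old MSCs were not analysed here, and the effects of a second cell layer and of its donors' age cannot be told apart. The labels name the libraries of a group biological replicates without saying whether they came from separate animals, so the p-values measure the spread between these libraries.

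An imprinted gene is transcribed mainly from the copy inherited from one parent, because the methylation of a nearby control region differs between the maternal and the paternal copy. H19, Meg3 and, in most tissues, Grb10 are expressed from the maternal copy, and the other 7 genes from the paternal copy. Many of these genes set the growth of the embryo and are turned down in most tissues after birth, while some stay active in stem and progenitor cells. They lie in clusters with neighbours of opposite parental origin, such as H19 with Igf2 and Dlk1 with Meg3. The reads were not assigned to parental copies, so the values are sums over both copies and do not measure the imprint itself.

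Dlk1 and Ndn showed the largest changes in each direction among members whose groups all lay above the floor of 3 reads per library, and their promoters are shown for that reason. Meg3 is shown as the neighbour of Dlk1 that did not follow it, and Peg3 as the promoter among those matched that holds the motif GGGGCCCC. Each window runs from 250 bases before to 50 bases after a transcription start, 5′ to 3′ on the gene's strand, in the RefSeq annotation of GRCm38.p6, and CpG dinucleotides, the sites of DNA methylation, are in capitals. The Dlk1 window is chr12:109452573-109452872 (plus strand), that of Meg3 is chr12:109540746-109541045 (plus strand), that of Ndn is chr7:62348027-62348326 (plus strand) and that of Peg3 is chr7:6730370-6730669 (minus strand). The Dlk1 window lies wholly inside the span of the gene, which begins at chr12:109452485, so it belongs to a start downstream of that position.
Dlk1: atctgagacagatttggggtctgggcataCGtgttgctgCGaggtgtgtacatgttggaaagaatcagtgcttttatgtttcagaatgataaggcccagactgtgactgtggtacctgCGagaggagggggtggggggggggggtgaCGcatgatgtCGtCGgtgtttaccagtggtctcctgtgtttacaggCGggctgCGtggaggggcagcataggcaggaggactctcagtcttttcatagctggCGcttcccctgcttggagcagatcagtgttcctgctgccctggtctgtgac
Meg3: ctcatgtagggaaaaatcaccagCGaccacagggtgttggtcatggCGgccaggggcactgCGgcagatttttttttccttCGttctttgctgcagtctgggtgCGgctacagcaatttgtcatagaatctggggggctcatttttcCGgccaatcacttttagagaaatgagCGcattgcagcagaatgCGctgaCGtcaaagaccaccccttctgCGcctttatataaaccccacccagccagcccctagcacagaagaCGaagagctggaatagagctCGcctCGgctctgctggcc
Ndn: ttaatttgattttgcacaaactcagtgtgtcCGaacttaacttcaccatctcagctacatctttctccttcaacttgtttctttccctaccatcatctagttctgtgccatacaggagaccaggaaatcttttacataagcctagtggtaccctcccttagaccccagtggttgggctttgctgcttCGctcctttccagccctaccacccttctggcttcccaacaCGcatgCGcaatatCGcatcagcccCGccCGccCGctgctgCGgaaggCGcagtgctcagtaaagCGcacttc
Peg3: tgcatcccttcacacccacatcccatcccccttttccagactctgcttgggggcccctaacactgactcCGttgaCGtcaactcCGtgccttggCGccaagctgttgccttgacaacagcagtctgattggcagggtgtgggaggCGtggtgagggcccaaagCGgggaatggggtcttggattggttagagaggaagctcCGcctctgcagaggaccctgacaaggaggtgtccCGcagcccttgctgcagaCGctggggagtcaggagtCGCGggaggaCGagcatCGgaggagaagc
The windows of Dlk1, Ndn, Meg3 and Peg3 hold 9, 11, 13 and 13 CpGs. Over 32851 promoters of the same length the median was 7 CpGs, with quartiles of 3 and 20. The first Grb10 window (chr11:12037371-12037670, minus strand) holds 45 CpGs, a number reached by 1.93% of all promoters. On either strand GGGGCCCC was found in 1.08% of all promoters and TATAAA in 13.6%, and the Meg3 window holds TATAAA. Promoters were matched for 8 of the 10 genes, and those of H19 and Peg10 were not used here.

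H19 and Mest also carry microRNAs inside the gene, miR-675 in H19 and miR-335 in Mest. Their mature sequences from RefSeq are shown because the host transcripts behaved differently, H19 being nearly absent from old MSCs and Mest being present at similar levels in all groups. Bases 2 to 8, the seed that pairs with target transcripts, are in capitals.
miR-675-5p: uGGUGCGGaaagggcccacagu
miR-675-3p: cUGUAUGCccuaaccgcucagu
miR-335-5p: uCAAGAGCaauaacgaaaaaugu
miR-335-3p: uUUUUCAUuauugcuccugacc
The 4 seeds differ from one another. The microRNA hairpins had 0 reads in all 18 libraries, which were made with a kit for mRNA, so the microRNAs themselves were not measured.

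The libraries held 22936251 to 25648769 reads on genes in young, 24965971 to 29559194 in old and 26018046 to 29155223 in co-cultured old MSCs. Values are normalized counts, the reads of a gene divided by 1 size factor per library, and 1 read corresponded to about 1 normalized count. Levels were tested as log2(normalized count + 1) with limma, and differences with a Benjamini-Hochberg adjusted p under 0.05 over all genes tested were called. Young and old MSCs differed in 85.7% of the tested genes, and also in markers of other cells. The 11 tested macrophage markers were lower in young MSCs, with a summed level of 927 to 1047 against 13475 to 17061 in old MSCs, and Ptprc and Adgre1 were at 0 in all young libraries. The 6 osteoblast and the 6 adipocyte markers were also lower in young MSCs. Of the 13 stromal markers, 5 were higher and 8 lower. The 3 tested endothelial markers were higher in young MSCs, and their list had a summed level of 6921 to 7301 against 37.6 to 66.0 in old MSCs. The 2 tested muscle markers were lower in young MSCs, and their list had a summed level of 22.3 to 39.2 against 2866 to 3081 in old MSCs. Pax7 and Myod1 of the muscle markers were at 0 in all libraries. The part of these populations in the results below was not tested, and fewer cells of a type and less RNA per cell cannot be told apart in bulk RNA.

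Between young and old MSCs, 7 of the 9 tested genes differed. Dlk1 and H19 were higher in young MSCs, and Ndn, Peg10, Nnat, Meg3 and Grb10 were lower. With each library centred on the median of a gene's chromosome, 3 were higher and 4 lower, Plagl1 being added and Meg3 lost. After centring, 11810 of 14004 genes were called. The share of called genes was 85.7% among all genes tested, 41.6% being higher and 44.1% lower in young MSCs, so the number of calls among the imprinted genes was near that background. The groups did not overlap for 6 of the 9 genes, against 73.9% of all genes tested. The absolute log2 fold change had a median of 1.21 over the 9 genes, beside 0.60 over all genes.

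**Figure D1:**
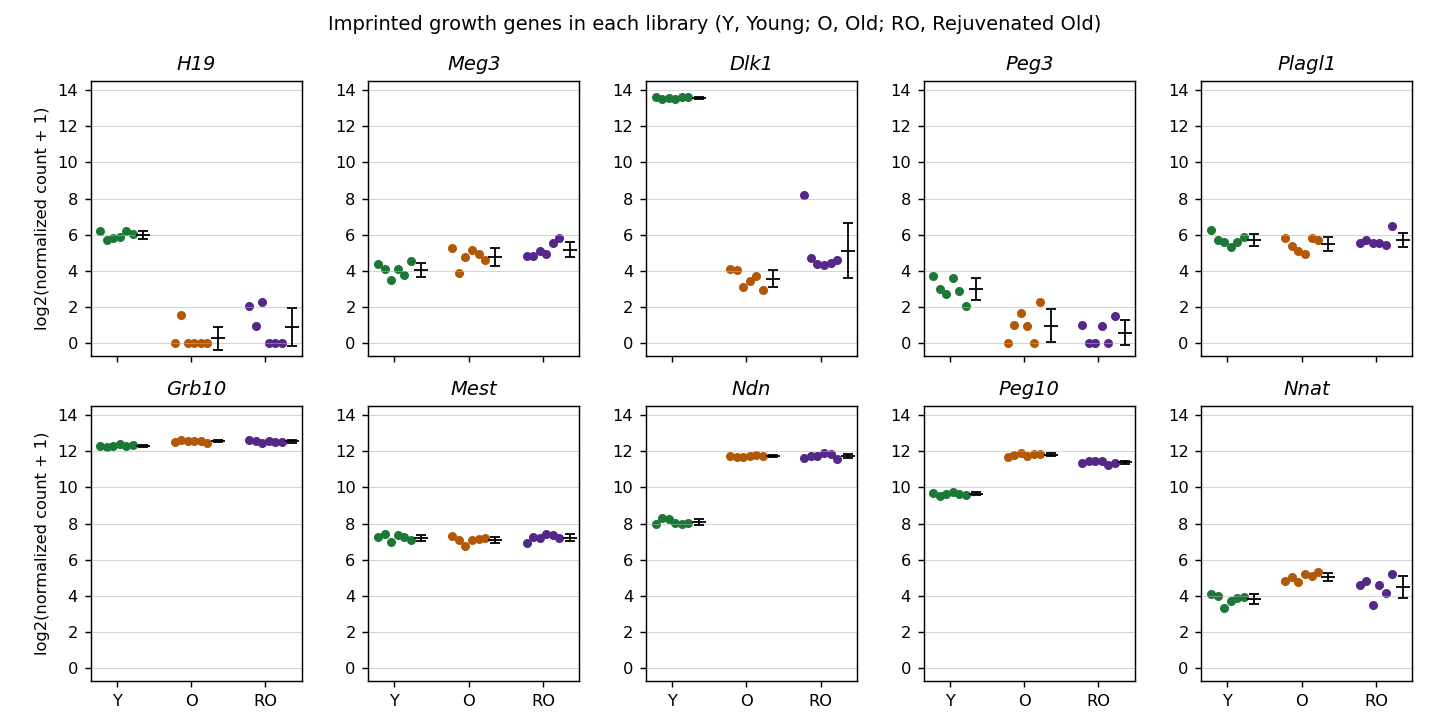
Log2(normalized count + 1) of the 10 imprinted growth genes, with 1 point per library for young (Y), old (O) and rejuvenated old (RO) MSCs and black bars for the mean ± SD (n = 6). Dlk1 and H19 are high in the 6 young libraries, Ndn and Peg10 are low in them, and 1 rejuvenated old library stands apart at a Dlk1 level of 297.6 normalized counts.

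Dlk1 (Entrez gene 13386, chr12:109452485-109463336, plus strand), a membrane-bound Notch-related ligand that holds back adipocyte differentiation, separated young from old MSCs most. The level ran from 11489 to 12726 normalized counts in young MSCs (median 12185), from 6.73 to 16.1 in old MSCs (median 11.02) and from 19.3 to 297.6 in rejuvenated old MSCs (median 22.0). Every young library was thus far above the 12 others, and the 6 rejuvenated old libraries lay above the 6 old ones. The mean was 12122 ± 543.5 (SD, n = 6) in young and 11.4 ± 4.01 (SD, n = 6) in old MSCs, a log2 difference of 10.002 ± 0.45 (SE, adjusted p = 1.11e-15, limma). A change of this size or more was found in 0.174% of the tested genes.

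In co-culture Dlk1 rose by 1.56 on the log2 scale ± 0.45 (SE, adjusted p = 0.00745, limma) against old MSCs, or 2.95-fold. Replicate 1 held 289 reads of Dlk1, and the other 5 rejuvenated old libraries held 20 to 27. Without replicate 1 the level was 21.8 ± 2.65 (SD, n = 5) and the fold fell to 1.92 (log2 fold change 0.94, adjusted p = 7.33e-05, limma), with the groups still apart. In percent of the young mean, Dlk1 was at 2.46% in replicate 1, at 0.159% to 0.210% in the other rejuvenated old libraries and at 0.0556% to 0.133% in the old libraries. A set of 58 genes with a young mean of at least 100 and at most 3 reads in every old library moved with Dlk1 in this library. Their median level in replicate 1 was 2.83% of the young mean, and 54 of the 58 had reads. The median was 0.108%, 0.0674% and 0.0701% in rejuvenated old replicates 2, 4 and 6 and 0% in replicates 3 and 5. In the old libraries it was 0% to 0.0266%, a level kept low by the choice of the genes. What set replicate 1 apart was not tested.

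**Figure D2:**
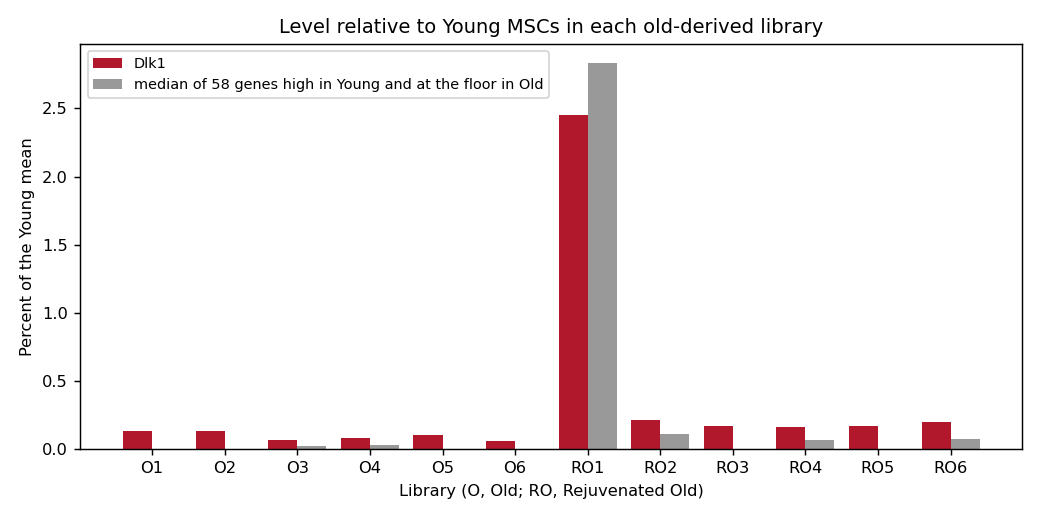
Level of Dlk1 (red) and median level of the 58 genes (grey) in percent of the young mean, for each old (O1 to O6) and rejuvenated old (RO1 to RO6) library. Rejuvenated old replicate 1 stands at 2.46% for Dlk1 and 2.83% for the 58 genes, and the other 5 rejuvenated old libraries lie at or below 0.210%.

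H19 (Entrez gene 14955, chr7:142575530-142578146, minus strand), a maternally expressed long non-coding RNA that restrains growth, was the other tested member higher in young MSCs. The level ran from 51.8 to 74.0 normalized counts in young MSCs (median 60.8, 356 reads in all). In old MSCs 5 libraries had no read and 1 had 2 reads, at 1.97 normalized counts. In rejuvenated old MSCs 3 libraries had no read and the highest had 3.81 normalized counts, with 8 reads in the group. Young MSCs did not overlap with either group (adjusted p = 7.85e-12 against old and 6.46e-11 against rejuvenated old MSCs, limma). The ratio of the levels was 187 for young over old MSCs, with a 95% counting interval of 51.4 to 1552, and 48.7 for young over rejuvenated old MSCs, with an interval of 24.4 to 114. These intervals cover counting error only. Both old-derived groups were at or near the floor, so no fold is given between them (adjusted p = 0.246, limma).

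Meg3 (Entrez gene 17263, chr12:109540996-109571729, plus strand), the maternally expressed long non-coding RNA downstream of Dlk1, did not follow its neighbour. Normalized counts ran from 10.1 to 22.7 in young MSCs (median 16.1), from 13.8 to 37.6 in old MSCs (median 27.5) and from 27.4 to 54.7 in rejuvenated old MSCs (median 31.1). The young and old libraries overlapped, and the rejuvenated old libraries lay above all young ones. Meg3 was lower in young than in old MSCs (log2 fold change -0.70 ± 0.24, SE, adjusted p = 0.00968, limma) and higher in rejuvenated old than in young MSCs (1.10 ± 0.24, adjusted p = 0.000189). The median log2 fold change of all tested genes on chromosome 12 was -0.46 between young and old MSCs. With each library centred on the median of the chromosome, Meg3 differed by -0.23 and the difference was no longer called (adjusted p = 0.378), while Dlk1 differed by 10.47. Against old MSCs the change in co-culture was 0.41 and missed the threshold (adjusted p = 0.184, 95% confidence interval -0.09 to 0.90).

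The log2 ratio of Dlk1 to Meg3 within a library, a quantity chosen after the values were seen, had a mean of 9.50 ± 0.38 (SD, n = 6) for young MSCs, -1.20 ± 0.71 (SD, n = 6) for old MSCs and -0.04 ± 1.72 (SD, n = 6) for rejuvenated old MSCs. Without replicate 1, whose ratio was 3.37, the rejuvenated old libraries had a mean of -0.73 ± 0.44 (SD, n = 5), and they overlapped with the old libraries with or without it. This and the other ratios of neighbouring genes below were chosen after the values were seen and are given as descriptions, with no test.

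Peg3 (Entrez gene 18616, chr7:6703892-6730462, minus strand), a paternally expressed zinc finger protein of growth and nurturing behaviour, was near the limit of detection. The level ran from 3.09 to 11.97 normalized counts in young MSCs (median 6.68, 43 reads), from 0 to 3.85 in old MSCs (8 reads) and from 0 to 1.89 in rejuvenated old MSCs (4 reads). Young libraries overlapped with old ones and lay above every rejuvenated old library. The difference was tested alone by a two-sided exact permutation test (924 splits, smallest possible p 0.00216), with p = 0.00433 for young against old MSCs, 0.00216 for rejuvenated old against young MSCs and 0.362 for rejuvenated old against old MSCs (0.00649, 0.00649 and 0.362 adjusted over the 3 comparisons). The ratio of young to old levels was 5.65, with a 95% counting interval of 2.63 to 13.9.

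Ndn (Entrez gene 17984, chr7:62348277-62349928, plus strand), a paternally expressed MAGE family protein that slows the cell cycle and is absent in Prader-Willi syndrome, showed the largest difference in the other direction. The level ran from 247 to 320 normalized counts in young MSCs (median 260), from 3235 to 3555 in old MSCs (median 3388) and from 3087 to 3769 in rejuvenated old MSCs (median 3438). The young libraries lay below all others, and the 2 old-derived groups overlapped. Ndn was 12.4-fold lower in young than in old MSCs (log2 fold change -3.63 ± 0.06, SE, adjusted p = 1.19e-23, limma). Genes on chromosome 7 had a median of 0.61 in the same comparison, and centred on this median the difference was -4.23. Rejuvenated old MSCs differed from old MSCs by 0.01 (95% confidence interval -0.11 to 0.14, adjusted p = 0.894).

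Peg10 (Entrez gene 170676, chr6:4747306-4760517, plus strand), a paternally expressed gene derived from a retrotransposon and needed for the placenta, was the one tested member besides Dlk1 that changed in co-culture. Its level ran from 744 to 868 normalized counts in young MSCs (median 797), from 3279 to 3862 in old MSCs (median 3630) and from 2464 to 2874 in rejuvenated old MSCs (median 2722). The 3 groups did not overlap. Peg10 was 4.49-fold lower in young than in old MSCs (log2 fold change -2.17 ± 0.05, SE, adjusted p = 8.46e-22, limma). It fell by 0.42 ± 0.05 on the log2 scale in co-culture (adjusted p = 2.12e-07), to a level still 3.36-fold above that of young MSCs (adjusted p = 4.85e-20).

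Nnat (Entrez gene 18111, chr2:157560078-157562525, plus strand) encodes neuronatin, a small membrane proteolipid linked to calcium handling and adipocyte differentiation. Normalized counts ran from 8.94 to 16.3 in young MSCs (median 14.1), from 25.9 to 39.4 in old MSCs (median 32.3) and from 10.5 to 36.8 in rejuvenated old MSCs (median 23.4). Young and old libraries did not overlap, while the rejuvenated old ones overlapped with both. Nnat was lower in young MSCs (log2 fold change -1.21 ± 0.23, SE, adjusted p = 4.29e-05, limma), and rejuvenated old MSCs were above young MSCs by 0.66 (adjusted p = 0.0106). This last difference was 0.22 with quantile normalization and was then not called (adjusted p = 0.368). Against old MSCs the value was -0.54 (adjusted p = 0.0617, 95% confidence interval -1.02 to -0.07), and it passed the threshold without rejuvenated old replicate 6 (-0.69, adjusted p = 0.0158) or replicate 2 (-0.61, adjusted p = 0.0499). Nnat lies within an intron of Blcap on the opposite strand. The strand setting of the counting is not stated, and reads of the 2 genes may not have been kept apart.

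Grb10 (Entrez gene 14783, chr11:11930499-12037428, minus strand), an adaptor that binds the insulin and IGF1 receptors and dampens their signal, was highly expressed in every group. Its level ran from 4809 to 5425 normalized counts in young MSCs (median 5020), from 5641 to 6234 in old MSCs (median 6052) and from 5645 to 6286 in rejuvenated old MSCs (median 6016). The young libraries lay just below the others. The difference was small and called, with a log2 fold change of -0.24 ± 0.03 (SE, adjusted p = 1.02e-06, limma) between young and old MSCs, a size reached by 77.8% of the tested genes. Rejuvenated old MSCs differed from old MSCs by -0.01 (95% confidence interval -0.08 to 0.06, adjusted p = 0.892).

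Mest and Plagl1 were not called in any comparison. Mest (Entrez gene 17294, chr6:30733506-30748466, plus strand), a hydrolase-like protein of fat and muscle growth, ran from 125 to 173 normalized counts in young, from 109 to 160 in old and from 120 to 169 in co-cultured old MSCs. The log2 difference of young and old MSCs was 0.12 (95% confidence interval -0.09 to 0.33, adjusted p = 0.273, limma). Mest overlaps Copg2 on the opposite strand, and the same limit on strand applies. Plagl1 (Entrez gene 22634, chr10:13090832-13131694, plus strand), a zinc finger protein that regulates other imprinted genes and stops the cell cycle, ran from 38.5 to 76.2 in young, from 29.995 to 56.2 in old and from 42.8 to 89.6 in rejuvenated old MSCs. The log2 difference of young and old MSCs was 0.25 (95% confidence interval -0.16 to 0.66, adjusted p = 0.235), and centring on the median of chromosome 10, -0.19, made it 0.45 (adjusted p = 0.0408). The libraries of all groups overlapped for both genes.

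**Figure D3:**
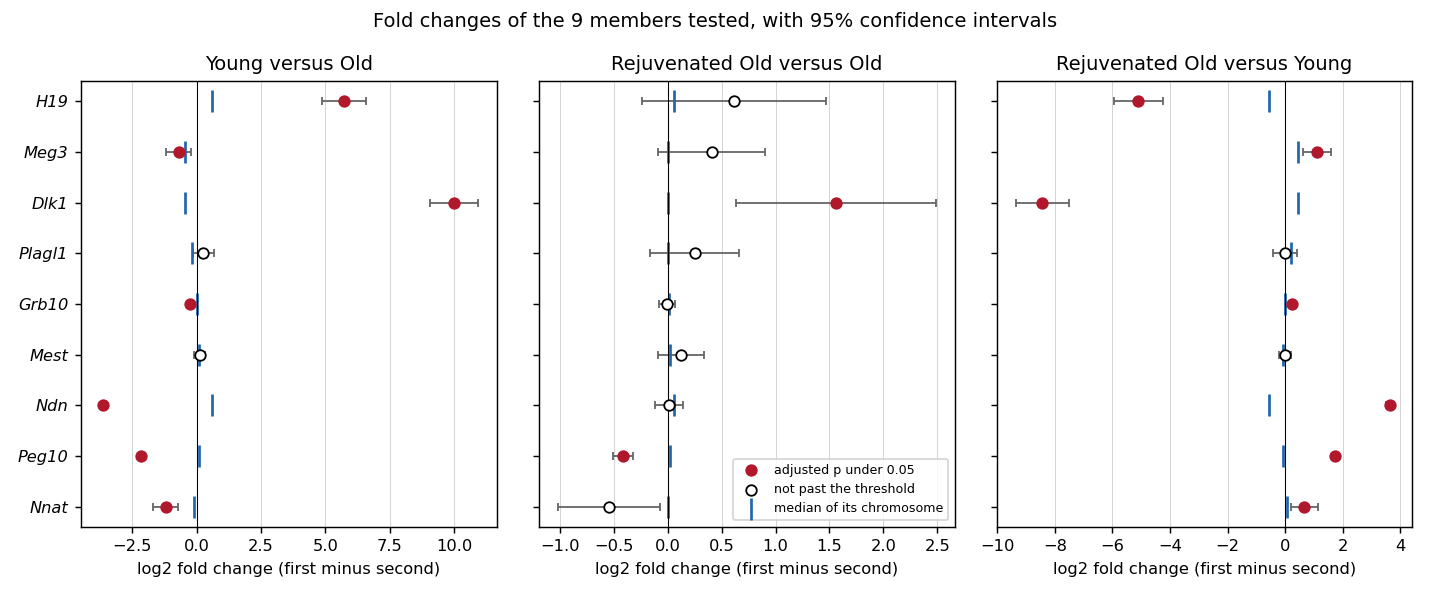
Log2 fold changes (points) with 95% confidence intervals (bars) of the 9 tested genes in the 3 comparisons, filled where the adjusted p was under 0.05, with the median of all tested genes on the same chromosome as a blue tick. Between young and old MSCs 7 genes are filled, and between rejuvenated old and old MSCs Dlk1 (1.56) and Peg10 (-0.42). The fitted values of H19 depend on the pseudocount, since its old-derived groups were near 0.

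Between rejuvenated old and old MSCs, 2 of the 9 tested genes differed, Dlk1 being higher and Peg10 lower, and 7 were not called. Among all genes tested 41.6% were called, 21.0% being higher and 20.6% lower. The groups did not overlap for Dlk1 and Peg10, as for 22.0% of all genes. The absolute log2 fold change had a median of 0.41 over the 9 genes and 0.15 over all genes. The 0.41 was the value of Meg3, which was not called. Of the larger values, those of H19 and Nnat were not called either, and H19 had 2 reads in old and 8 in rejuvenated old MSCs. Of the marker lists, 1 macrophage gene was higher and 1 lower in co-culture, with a summed level of 13328 to 16383 normalized counts in rejuvenated old MSCs. Of 6 adipocyte markers 4 rose and 1 fell, and of 6 osteoblast markers 1 rose and 4 fell. Of 13 stromal markers 4 rose and 6 fell, of 3 tested endothelial markers 1 rose and 1 fell, and of 2 tested muscle markers 1 fell. The endothelial list had a summed level of 46.3 to 421 in rejuvenated old MSCs, beside 37.6 to 66.0 in old MSCs. The part of the marked cell populations in the changes of Dlk1 and Peg10 was not tested. Between rejuvenated old and young MSCs 7 of the 9 genes differed, Meg3, Grb10, Ndn, Peg10 and Nnat being higher and H19 and Dlk1 lower, beside 85.6% of all genes, 44.1% higher and 41.5% lower. The groups did not overlap for 6 of the 9 genes, against 70.5% of all genes. These comparisons share the rejuvenated old libraries with each other, and each shares a further group with the comparison of young and old MSCs.

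Per kb of exon, a scale on which levels of different genes can be set side by side, the order of the genes changed between young and old MSCs. In young MSCs Dlk1 led with a mean level of 2533 normalized counts per kb, before Grb10 with 992, Ndn with 166 and Peg10 with 120. In old MSCs Ndn led with a mean level of 2048, before Grb10 with 1171 and Peg10 with 540, while Dlk1 was at 2.38. The first 5 places of rejuvenated old MSCs were those of old MSCs, with mean levels of 2070 for Ndn, 1165 for Grb10, 405 for Peg10, 53.9 for Mest and 16.02 for Nnat. H19 had a mean level of 27.3 per kb in young MSCs, above Plagl1 with 9.93 and Nnat with 9.34 there, and of at most 0.572 in the old-derived groups. Meg3 and Peg3 had low mean levels in every group, at most 2.30 for Meg3 in rejuvenated old MSCs.

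**Figure D4:**
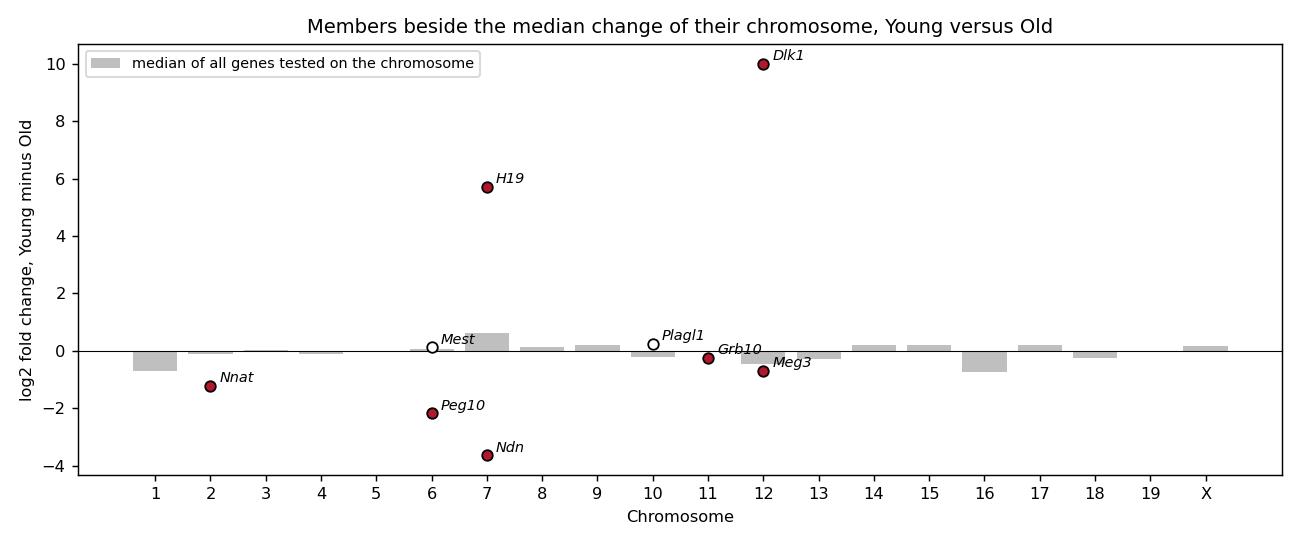
Log2 fold change between young and old MSCs of the 9 tested genes (points, filled where called) beside the median of all tested genes on each chromosome (grey bars). The medians of chromosomes 7 and 12 were 0.61 and -0.46, and Dlk1, H19, Ndn and Peg10 lie far from the median of their chromosome while Meg3 lies near it.

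Chromosomes differed in their median change between young and old MSCs, from -0.75 on chromosome 16 to 0.61 on chromosome 7. Between rejuvenated old and old MSCs the medians of the chromosomes carrying these genes lay between -0.0014 on chromosome 10 and 0.06 on chromosome 7. H19 and Ndn share chromosome 7 and differed in opposite directions between young and old MSCs, as did Dlk1 and Meg3 on chromosome 12. The difference of Meg3 was not called after centring on the chromosome (adjusted p = 0.378, limma). Peg10 and Mest share chromosome 6, where Peg10 was lower in young MSCs and Mest was not called.

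Of 67 other imprinted genes listed from general knowledge, 65 were in the table and 42 were tested. Between young and old MSCs 21 were higher, 18 lower and 3 not called. Between rejuvenated old and old MSCs 10 were higher, 7 lower and 25 not called, and between rejuvenated old and young MSCs 17 were higher, 18 lower and 7 not called. Over all tested genes 85.7%, 41.6% and 85.6% were called in these comparisons. Centred on the median of the chromosome, 18 were higher and 20 lower, 7 higher and 11 lower, and 20 higher and 16 lower, so that the larger of the numbers changed side in each. Over all genes, 11810, 5866 and 11780 of 14004 were called after centring. The median absolute log2 fold changes were 1.08, 0.17 and 0.98, beside 0.60, 0.15 and 0.58 over all genes.

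**Figure D5:**
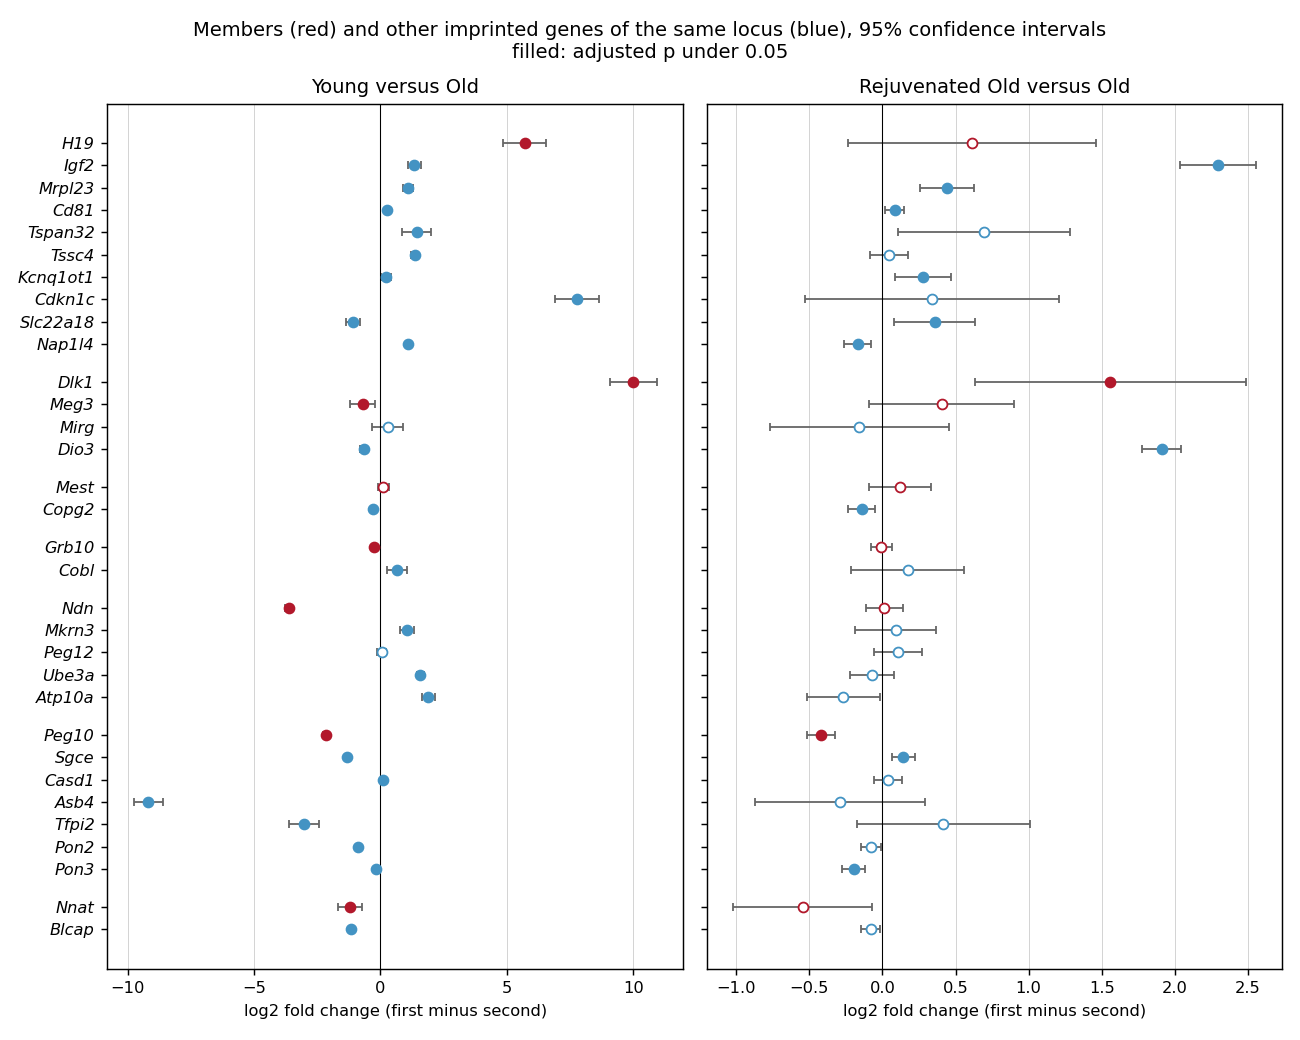
Log2 fold changes with 95% confidence intervals of the tested members (red) and of the tested imprinted genes of the same locus (blue), filled where the adjusted p was under 0.05, for young against old (left) and rejuvenated old against old MSCs (right). On the right Igf2 (2.29) and Dio3 (1.91) lie farthest from 0, and Peg10 and Sgce lie on opposite sides of 0.

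At the H19 locus on chromosome 7, Igf2, the paternally expressed growth factor that shares enhancers with H19, had 348 to 400 normalized counts in young, 120 to 165 in old and 499 to 928 in co-cultured old MSCs. The 3 groups did not overlap and the rejuvenated old level was above both others. Igf2 rose 4.90-fold in co-culture (log2 fold change 2.29 ± 0.13, SE, adjusted p = 2.56e-12, limma), and young MSCs were above old MSCs by 1.35 (adjusted p = 9.35e-10). Cdkn1c, a maternally expressed inhibitor of the cell cycle farther along the chromosome, had 385 to 429 normalized counts in young MSCs, 0 to 2.15 in old and 0 to 8.24 in rejuvenated old MSCs. Its highest rejuvenated old value was that of replicate 1, with 8 of the 13 reads of the group. Its ratio of young to old levels was 400, with a 95% counting interval of 184 to 1092. Mrpl23, Cd81, Tspan32, Tssc4, Nap1l4 and the non-coding RNA Kcnq1ot1 were also higher in young than in old MSCs, and Slc22a18 was lower. Of these, Cd81 and Kcnq1ot1 differed by less than the chromosome 7 median of 0.61, and centred on it they were lower in young MSCs, from 0.26 to -0.35 for Cd81 and from 0.23 to -0.37 for Kcnq1ot1 (adjusted p = 2.43e-10 and 0.000769, limma). In co-culture Igf2, Mrpl23, Cd81, Kcnq1ot1 and Slc22a18 rose, Nap1l4 fell and Tspan32, Tssc4 and Cdkn1c were not called, and the rises of Cd81, Kcnq1ot1 and Slc22a18 were not called after centring (adjusted p = 0.464, 0.0554 and 0.0723).

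At the Dlk1 locus on chromosome 12, Dio3, the enzyme that inactivates thyroid hormone, had 488 to 642 normalized counts in young, 802.5 to 953 in old and 2818 to 3591 in co-cultured old MSCs. The rejuvenated old libraries lay above all others. Dio3 rose 3.76-fold in co-culture (log2 fold change 1.91 ± 0.06, SE, adjusted p = 7.06e-16, limma). It was lower in young than in old MSCs by 0.66 (adjusted p = 1.68e-09, limma), beside a median of -0.46 over the tested genes of chromosome 12. Dlk1 and Dio3, both paternally expressed, thus differed in opposite directions between young and old MSCs, and their log2 ratio in a library was 4.47 ± 0.12 (SD, n = 6) in young and -6.19 ± 0.47 (SD, n = 6) in old MSCs. Rtl1, the third paternally expressed gene there, fell below the limit of the test and is named after its values were seen, with 51 reads in young, 2 in old and 5 in co-cultured old MSCs. The microRNA host Mirg was called in none of the 3 comparisons, though centring on the chromosome made it higher in young than in old MSCs by 0.77 (adjusted p = 0.0206, limma) and lower in rejuvenated old than in young MSCs (-0.92, adjusted p = 0.00654; means of 17.9, 13.7 and 12.5 normalized counts in young, old and rejuvenated old MSCs).

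At the Ndn locus on chromosome 7, Magel2, a paternally expressed relative of Ndn below the limit of the test, had 1 read in young, 73 in old and 91 in co-cultured old MSCs, and is named after its values were seen. Mkrn3, also paternally expressed, differed in the other direction and was higher in young than in old MSCs. The same held for Ube3a and Atp10a, which are not imprinted in every tissue. The means in young and old MSCs were 74.5 and 35.9 normalized counts for Mkrn3, 1255 and 420 for Ube3a, and 728 and 198 for Atp10a. The log2 ratio of Ndn to Ube3a was -2.20 ± 0.11 (SD, n = 6) in young and 3.01 ± 0.15 (SD, n = 6) in old MSCs. Neither these 3 genes nor Peg12, which was not called between young and old MSCs either, passed the threshold in co-culture. Centred on the median of chromosome 7, Peg12 was lower in young than in old MSCs (-0.55, adjusted p = 1.79e-06, limma) and higher in rejuvenated old than in young MSCs (0.60, adjusted p = 5.05e-07), and Atp10a was lower in co-culture (-0.32, adjusted p = 0.0411). Snrpn and Snurf, which overlap each other, were listed at 0 in all libraries.

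At the Peg10 locus on chromosome 6, Sgce, a paternally expressed sarcoglycan that starts beside Peg10 on the opposite strand, was also lower in young MSCs, with 1998 to 2115 normalized counts against 5034 to 5431 in old and 5118 to 6276 in co-cultured old MSCs. It rose in co-culture by 0.14 ± 0.04 on the log2 scale (SE, adjusted p = 0.00372, limma) while Peg10 fell. The log2 ratio of Peg10 to Sgce was -0.54 ± 0.11 (SD, n = 6) in old MSCs and -1.10 ± 0.15 (SD, n = 6) in rejuvenated old MSCs, without overlap, and -1.14 ± 0.15 (SD, n = 5) without rejuvenated old replicate 1. Asb4, a neighbour that targets proteins for degradation, had 4 reads in a single young library and 719 to 802.5 normalized counts in old MSCs, a ratio of 1085 for old over young with a 95% counting interval of 423 to 3983. Tfpi2, a protease inhibitor, had means of 5.51, 45.4 and 61.9 normalized counts in young, old and rejuvenated old MSCs, and Pon2 and Pon3 were lower and Casd1 higher in young than in old MSCs, Casd1 not being called after centring on the chromosome (adjusted p = 0.297, limma). In co-culture Pon3 fell, and Asb4, Tfpi2, Pon2 and Casd1 were not called, Pon2 being lower after centring (-0.09, adjusted p = 0.0321).

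At the loci with a single tested neighbour, Blcap, which contains Nnat, was 2.25-fold lower in young than in old MSCs, near the 2.31-fold of Nnat. The log2 ratio of Nnat to Blcap was -6.74 ± 0.31 (SD, n = 6) in young and -6.71 ± 0.19 (SD, n = 6) in old MSCs, a difference of -0.04 that is smaller than either SD. Copg2, the neighbour of Mest, was lower in young than in old MSCs by 0.29 (adjusted p = 3.62e-06, limma) and fell by 0.14 in co-culture (adjusted p = 0.0154). Cobl, an actin nucleator beside Grb10, was higher in young than in old MSCs by 0.65 (adjusted p = 0.00254) and had a value of 0.17 in co-culture (adjusted p = 0.485).

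Elsewhere in the genome, among listed genes that are not all imprinted in every tissue, those with the largest called differences between young and old MSCs were Dlx5, a bone transcription factor, with means of 0.506 and 1022 normalized counts, the splicing factor gene Zrsr1 with 4.91 and 997, and decorin (Dcn), a matrix proteoglycan, with 5040 and 269. They were also the largest between rejuvenated old and young MSCs. In co-culture the largest called changes were those of Igf2r, the receptor that clears IGF2, which fell from 5039 to 3213 normalized counts (log2 fold change -0.66, adjusted p = 2.71e-08, limma), of Dcn, which rose from 269 to 408 (0.60, adjusted p = 3.76e-07), and of Qpct, an enzyme that cyclizes glutamine, which fell from 272 to 212 (-0.36, adjusted p = 0.00105). Igf2 and its clearance receptor Igf2r thus changed in opposite directions in co-culture.

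Of 16 tested genes that maintain imprints, 7 were higher and 7 lower in young than in old MSCs, 4 rose and 2 fell in co-culture, and 7 were higher and 8 lower in rejuvenated old than in young MSCs, beside 85.7%, 41.6% and 85.6% of all tested genes called. Zfp57, the zinc finger protein that keeps control regions methylated, was named after its values were seen. It had 3929 to 4242 normalized counts in young, 786 to 910 in old and 961 to 1240 in co-cultured old MSCs, and it rose in co-culture (log2 fold change 0.29, adjusted p = 0.000238, limma). Of 13 tested genes of the insulin and IGF receptor chain, on which Grb10 acts, 6 were higher and 6 lower in young than in old MSCs, 2 rose and 1 fell in co-culture, and 6 were higher and 6 lower in rejuvenated old than in young MSCs, beside the same shares of 85.7%, 41.6% and 85.6% over all genes. Among them, and again named after the values were seen, Igf1r had means of 3860, 1626 and 1734 normalized counts in young, old and rejuvenated old MSCs, and the receptor substrate Irs1 had 932, 8231 and 8100.

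As a description, the tested gene whose level followed each member most closely over the 18 libraries was sought. By Pearson r of log2(normalized count + 1) these were Igfbp6, which binds IGF2, for Dlk1 (r = 0.996), Slc7a5 for H19 (r = 0.989), Ttc12 for Ndn (r = 0.999) and Net1 for Peg10 (r = 0.999). Hacd4 was closest to Grb10 (r = 0.967), 4931414P19Rik to Meg3 (r = 0.907) and Nisch to Nnat (r = 0.902). The closest genes to Mest and Plagl1 reached r = 0.743 (Supv3l1) and 0.736 (Dna2). An r over 0.9 was shared by 3788 genes for Ndn and 2900 for Dlk1, as the libraries fall into the same groups for all genes.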

How the data were processed

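The labels name 18 libraries of mouse MSCs, prepared with a stranded mRNA kit. The authors aligned reads to mm10 with HISAT2, used StringTie and featureCounts for counting and DESeq2 for normalization on Galaxy. Versions, annotation and strand setting are not given in the sources used here. The deposited signal is the reads per gene divided by 1 size factor per library, and 100% of the values came out as whole reads (tolerance 0.1 of a read, largest departure 5.55e-05). Genes were matched by Entrez number to RefSeq GRCm38.p6 (25275 of 27179), and exon lengths were taken within the RefSeq span.

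Values were tested as log2(value + 1), with pseudocount 1, for the 14353 genes whose mean reached 10, using limma 3.58.1 (R 4.3.3) with all 3 groups in one fit, a variance trend and Benjamini-Hochberg adjustment at 0.05. Fold changes on this scale understate the change of low genes. Count tests used edgeR 4.0.16 and DESeq2 1.42.0 on the recovered reads. The fits were tested on simulated counts. The 15 library pairs of each group were farther apart than sampling noise (chi-square per degree of freedom 2.54 to 22.3). The exact permutation test used scipy 1.17.1. Members, lists and alternatives were chosen with earlier results of these data known. The rule named all 10 members, the tested imprinted genes of their loci, the 3 largest called changes elsewhere and the closest gene to each member. Alternatives covered pseudocount, filter, scaling, chromosome centring, test, threshold, replicate block and leaving out each library.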

Additional observations from a re-analysis of the deposited data

Results flagged for a closer look

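In 3 of the 30 groups of 6 libraries examined (10 genes in 3 groups) 1 library stood apart, by the size of its gap to the nearest other library relative to the range of the group (Dixon's criterion at the 95% level). Chance alone gives about 1 in 20 such groups. Dlk1 in rejuvenated old replicate 1 was at 297.6 normalized counts (289 reads), with the next library at 25.5. H19 in old replicate 2 was at 1.97 normalized counts (2 reads), with no read in the other 5 libraries. With 5 libraries at 0 any read in the remaining one meets the criterion, so the chance rate does not apply there. Plagl1 in rejuvenated old replicate 6 was at 89.6 normalized counts (95 reads), above a group median of 46.0.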

How the results depend on the processing

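The counts of called genes were within 1.5 times the reported count in 191 of 198 recalculations. No called difference of a member changed direction, while values near 0 that were not called changed sign, such as Ndn in co-culture (-0.04 after chromosome centring) and Mest between rejuvenated old and young MSCs (-0.13 to 0.06). With a mean of at least 50 required, 6 members were tested and 4 called between young and old MSCs and 4 between rejuvenated old and young MSCs. Of the 12203 genes then tested, 10630 and 10617 were called in these comparisons. DESeq2 called 6 members between young and old MSCs, 1 between rejuvenated old and old MSCs, Peg10, and 6 between rejuvenated old and young MSCs. It called 12259, 6345 and 12260 of all 14353 genes tested and gave no adjusted p for Dlk1. With edgeR Dlk1 had a log2 fold change of 2.51 in co-culture (5.71-fold, adjusted p = 0.0111). That value includes replicate 1, which held 289 of the 404 reads of Dlk1 in rejuvenated old MSCs. When the log2 fold change also had to reach 1 in size, 5 members were called between young and old, 1 in co-culture and 5 between rejuvenated old and young MSCs, and 23, 2 and 21 other imprinted genes were called between young and old, rejuvenated old and old, and rejuvenated old and young MSCs. Calls over all genes were not counted with this limit on size. An adjusted p under 0.01 gave 7, 2 and 6 members, beside 11565, 4287 and 11498 of the 14353 genes tested. Apart from these stricter thresholds, which were applied to counts, 819 recalculated tests of single members kept their call, 6 gained and 3 lost it. The fold change of Nnat in co-culture was called with a pseudocount of 10 (-0.39, adjusted p = 0.0415), quantile normalization (-0.59, adjusted p = 0.0446) and the replicate block. Over its alternatives the adjusted p of Nnat ran from 0.0158 to 0.177. Quantile normalization also ended the calls of Meg3 between young and old MSCs (-0.31, adjusted p = 0.216) and of Nnat between rejuvenated old and young MSCs. Leaving out each library in turn gave 7 members between young and old, 2 to 3 between rejuvenated old and old, and 7 between rejuvenated old and young MSCs, and 37 to 39, 15 to 19 and 33 to 35 other imprinted genes. Of the 14334 to 14357 genes tested in these recalculations, 12128 to 12362, 5439 to 5994 and 12119 to 12291 were called. Low counts limit H19 and Peg3, and without the filter Peg3 differed by 2.01 between young and old MSCs (adjusted p = 9.92e-05, limma).

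Libraries with the same replicate number did not deviate together (18 pairs, r from -0.152 to 0.0736, none over 0.1), so they share only a number. With the replicate block, 7, 3 and 7 members were called in the 3 comparisons, the added call being Nnat (-0.54, adjusted p = 0.0298), and 38, 17 and 35 other imprinted genes. Among all 14353 genes tested, 12219, 5769 and 12210 were called with the block. In 0 of the 18 pairs did a library correlate best with its own number.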
